A study of Mus musculus with 2 samples.

Results

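The genes described here are 6 CXC chemokines and 1 chemokine receptor of the fracture callus: Cxcl1, Cxcl2, Cxcl3 and Cxcl5, their receptor gene Cxcr2, and the further CXC ligand genes Cxcl14 and Cxcl16. These 7 genes were taken by symbol from the 32285 genes of each count matrix, and all 7 were found in both. The callus is the tissue that bridges a broken bone. The data were 2 single-cell RNA libraries, named MGJ and MGJ2, from calluses of wild-type mice with a femoral fracture, and no allele or agent set one library apart from the other. Per the study's methods the mice were male C57BL/6J animals of 12 weeks, and calluses were taken from 5 mice 10 days and from 5 mice 20 days after fracture. The labels give neither library a day and do not tell the mice apart. Each library was therefore described alone, values of the 2 libraries stand side by side without a comparison, and with 1 library of each kind no test was possible. All intervals are exact 95% intervals that cover counting error only, not the spread between mice.

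CXC chemokines are small secreted proteins that guide white blood cells along a gradient. CXCL1, CXCL2, CXCL3 and CXCL5 belong to the group that carries the ELR motif and binds CXCR2, a receptor on neutrophils, which are among the first cells to enter injured tissue. Their genes are switched on by interleukin-1, tumour necrosis factor and interleukin-17 through the transcription factor NF-kB. CXCL14 lacks the ELR motif, and CXCL16 is made as a membrane protein whose receptor is CXCR6.

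The 4 genes of the CXCR2 ligands lie together on mouse chromosome 5 (GRCm38, GENCODE annotation), on the plus strand within 146579 bases at chr5:90759360-90905938, each with 4 exons in its first annotated transcript. Cxcr2 lies on chromosome 1 (chr1:74153989-74161246, plus strand), Cxcl16 on chromosome 11 (chr11:70453983-70459984, minus strand) and Cxcl14 on chromosome 13 (chr13:56288643-56296551, minus strand). Promoter sequence from RefSeq (GRCm38.p6, 250 bases before to 50 after the start) was held for 5 of the 7 genes. The windows of Cxcl1, Cxcl2 and Cxcl3 are shown because they carry the same pair of motifs upstream of the start, in the same order. Capitals mark GGGAATTTCCC, which holds a form of the NF-kB site, and ATAAAAGG, a TATA-type motif, and each window runs 5′ to 3′ on the plus strand.
Cxcl1, chr5:90891164-90891218: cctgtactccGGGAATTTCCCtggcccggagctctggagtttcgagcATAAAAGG
Cxcl2, chr5:90903792-90903849: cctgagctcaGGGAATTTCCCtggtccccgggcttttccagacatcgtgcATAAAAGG
Cxcl3, chr5:90786018-90786079: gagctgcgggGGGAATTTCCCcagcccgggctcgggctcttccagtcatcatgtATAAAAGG

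The motifs are the runs of at least 8 bases that these 3 promoters share, so their presence in the 3 was given by the choice, made after the promoters had been read. The NF-kB-type motif began 71 bases before the RefSeq start in Cxcl1, 97 in Cxcl2 and 73 in Cxcl3, and 26, 29 and 33 bases separated it from the TATA-type motif. Searched on both strands, GGGAATTTCCC was in 14 of 32851 promoters of this length (0.0426%) and ATAAAAGG in 577 (1.76%), and the 2 do not overlap. Both together on the gene's own strand were in 3 promoters (0.00913%), those of Cxcl1, Cxcl2 and Cxcl3. The third shared run, CTCCAGACTCCAG, lies past the start and was in 4 promoters (0.0122%). None of these runs was in the windows of Cxcr2 and Cxcl14. The promoter set held no sequence for Cxcl5 and Cxcl16, so the runs could not be looked for in these genes. The Cxcl2 and Cxcl3 transcripts share an exact run of 110 bases, which ends 939 bases before the Cxcl2 3′ end and 850 before the Cxcl3 end, far from the 3′ ends that this assay tags. The next longest run between 2 of the ligand transcripts was 23 bases.

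MGJ held 14295 barcodes and MGJ2 held 8009, with 135304426 and 61130834 UMIs, the molecular tags that count RNA molecules. Barcodes with at least 200 genes and at most 20% mitochondrial UMIs numbered 13460 and 7806, and after removal of likely doublets 12947 and 7568 cells were used, with a median of 5531 and 4920 UMIs. The libraries shared 19 barcode sequences. Clustering without the 7 genes and the listed pathway genes gave 30 clusters, of which 17 drew over 90% of their cells from 1 library. Classes carry "-like" names from marker genes, and 18 classes in MGJ and 14 in MGJ2 held at least 50 cells. Cartilage markers were present, with Col2a1 at 51917 of every 1000000 UMIs in the chondrocyte-like cells of MGJ and Col10a1 at 24311 in the hypertrophic chondrocyte-like cells of MGJ2. Neutrophil-like cells, which are not known to make this collagen, held Col2a1 at 874 in MGJ and 87.6 in MGJ2, and the part of free RNA in low levels was not tested. No cell of MGJ2 fell in the fibroblast-like cluster, and mesenchymal-like cells numbered 4492 in MGJ and 209 in MGJ2. The tendon cell-like cluster scored 3.83 for tendon cells and 3.73 for fibroblasts, so its name is not clear-cut. Of the clusters named, 4 had no marker of their own class among their 10 leading genes: the main monocyte-like cluster of each library, a neutrophil-like cluster led by interferon-response genes and a dividing chondrocyte-like cluster.

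Levels are given as CPM, the UMIs of a gene per 1000000 UMIs of a class. Of the 7 genes, 3 were at least 2-fold higher in neutrophil-lineage-like than in all other cells of MGJ (Cxcl2, Cxcl3 and Cxcr2), where 9.47% of all tested genes were. In MGJ2 it was 2 of the 6 genes with at least 50 UMIs (Cxcl2 and Cxcr2), against 7.90% of all genes. Cxcl1, Cxcl5 and Cxcl14 were at least 2-fold higher in mesenchymal-like than in neutrophil-lineage-like cells of MGJ, a contrast that 61.7% of all genes passed, and Cxcl1 and Cxcl14 in MGJ2, where 45.8% passed. In mononuclear-phagocyte-like cells (monocyte-, macrophage-, dendritic cell- and osteoclast-like) over all others, Cxcl2, Cxcl3 and Cxcl16 passed in MGJ (background 13.8%), and Cxcl1 with these 3 in MGJ2 (background 8.55%). In the mesenchymal contrast the share of the 7 genes was no higher than that of all genes, so only the values of each gene are read there. The median ratio of all tested genes in that contrast was 3.35 in MGJ and 1.72 in MGJ2.

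**Figure D1:**
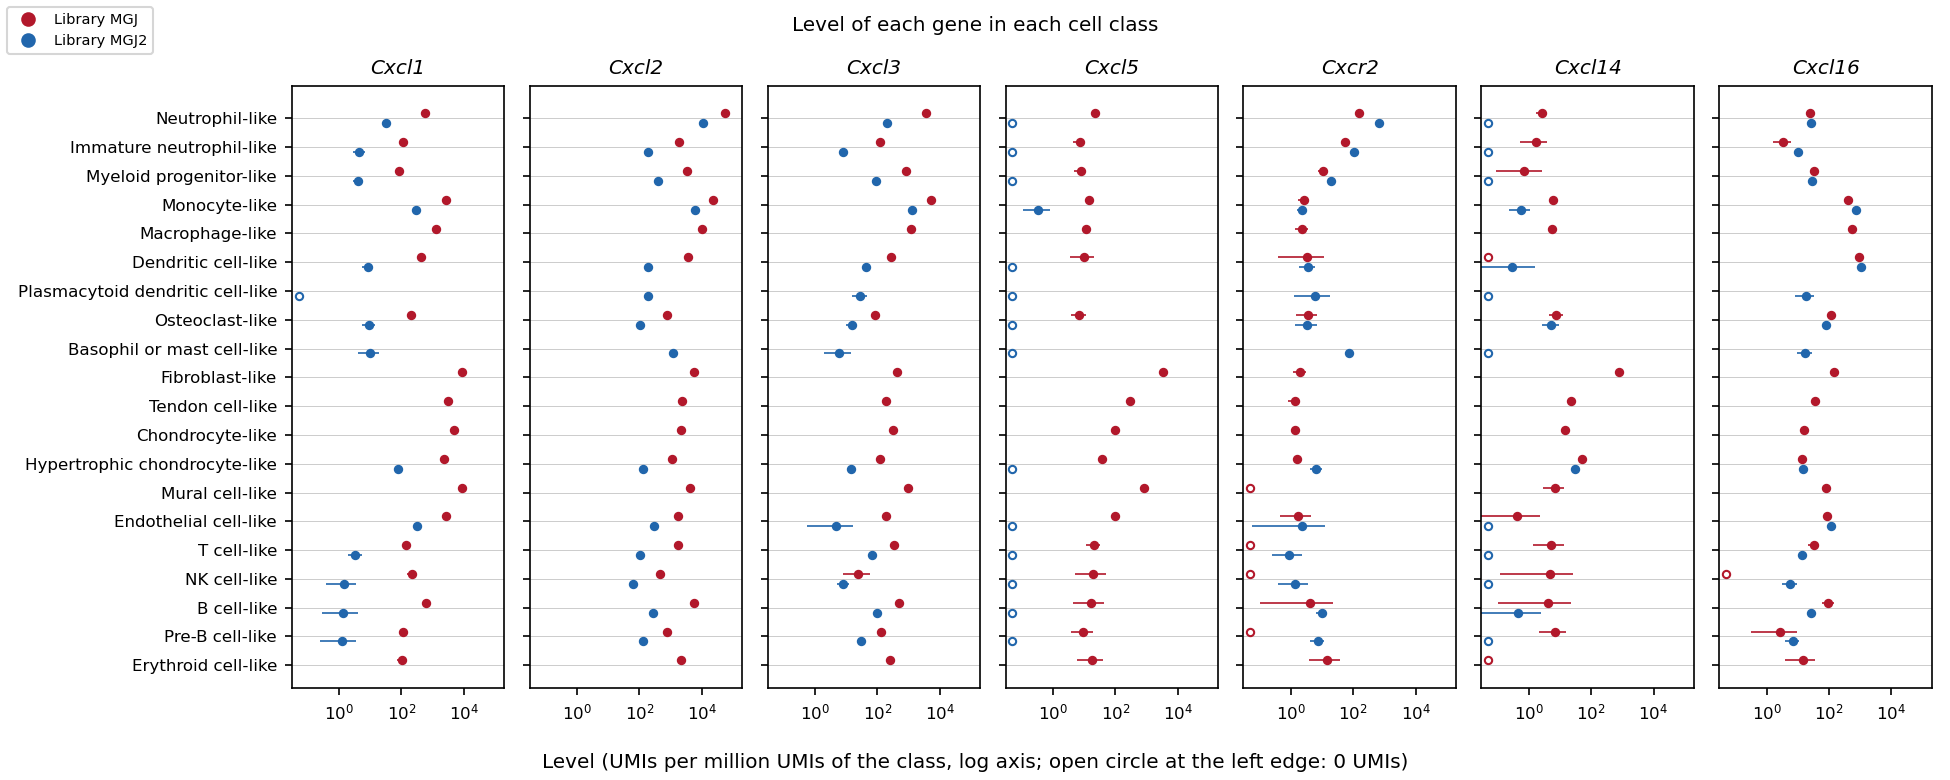
Level of each gene (x axis, CPM of the class, log scale) in each class of at least 50 cells (y axis), for MGJ in red and MGJ2 in blue, with exact 95% Poisson intervals and open circles for 0 UMIs. Cxcl2 and Cxcr2 were highest in the neutrophil-like row of both libraries, while Cxcl5 and Cxcl14 were highest in the fibroblast-like row of MGJ.

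Cxcl1, the mouse counterpart of the human GRO chemokines, was mainly a stromal transcript in MGJ. Mural cell-like cells (137 cells, pericytes and smooth muscle of vessels) had 8988 CPM (8817 to 9161) and fibroblast-like cells (538 cells) had 8576 (8517 to 8635). Chondrocyte-like cells had 4888, tendon cell-like cells 3037, endothelial cell-like cells 2665 and hypertrophic chondrocyte-like cells 2325. Of the myeloid classes, monocyte-like cells had 2598 (2565 to 2632), between the last 2 of these, and macrophage-like cells 1235. Since chondrocyte-like cells were many, they held 38.5% of all Cxcl1 UMIs, ahead of the fibroblast-like cells with 20.3%. Per cell the fibroblast-like cells led with a mean of 152 UMIs, against 98.0 in chondrocyte-like and 76.9 in mural cell-like cells. The neutrophil-like cells themselves stood at 557 (542 to 572), and mesenchymal-like cells had 9.33 times the level of the neutrophil lineage (9.09 to 9.58). In the same library pre-B, T and NK cell-like cells had 109, 135 and 212, and the 82 B cell-like cells 603 (509 to 710). Among the neutrophil-like clusters, the one led by Ccl3 and Ccl4 had 980 (949 to 1012) and the one led by Rsad2 and Ifit1 had 696 (640 to 755), the first above all of these classes and the second not separated from the B cell-like cells, and the others had 145 to 309. After each cell was thinned to 1000 UMIs, 23.1% of neutrophil-like and 14.5% of T cell-like cells had a Cxcl1 UMI, against 85.7% of fibroblast-like and 71.5% of chondrocyte-like cells. The median depth was 1841, 3037, 17470.5 and 19788.5 UMIs in these classes before thinning, and cells under 1000 UMIs were left out (319 neutrophil-like and 4 T cell-like in MGJ, 50 and 6 in MGJ2).

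In MGJ2 the whole library had a Cxcl1 level of 96.7 CPM, and the endothelial cell-like (50 cells) and monocyte-like cells led with 314 (263 to 371) and 298 (290 to 307). These neighbours did not differ beyond counting error (ratio 1.05, 0.88 to 1.25). Monocyte-like cells held 78.3% of the Cxcl1 UMIs of MGJ2, but few of them carried the transcript: 14.2% had a UMI, 8.1% after each cell was thinned to 1000 UMIs, against 0.4% of thinned T cell-like cells. The 76 cells with most Cxcl1, which are 1% of the library, held 70.1% of its UMIs, and 86.8% of those cells were monocyte-like. In MGJ the top 1% of cells held 14.1%. Mesenchymal-like cells had 5.31 times (4.49 to 6.30) the level of the neutrophil lineage in MGJ2, resting on 209 cells and 503 UMIs, and this ratio was 3.27 with cells weighted equally and 9.91 with cells named one by one from their marker scores. The 21 macrophage-like cells of MGJ2, too few to be ranked, had 978 (865 to 1102).

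Chondrocyte-like cells of MGJ were not uniform in Cxcl1. Sub-clusters ranged from 856 (826 to 887) in cells led by Id1, Fos and Id3, genes of BMP signalling and of the early response, to 7472 (7401 to 7543) in cells led by Nos2, Ccl2, Icam1 and Il6, which are known inflammatory genes. Cells led by the acute-phase genes Saa3, Hp and Lcn2 followed with 6395. Cxcl2 and Cxcl3 were lowest in the same Id1-led cells, at 427 and 32.4. One further chondrocyte-like sub-cluster was led by Ccl4, S100a8 and S100a9, which are neutrophil genes, and there Cxcl2 was highest among the sub-clusters at 5907, and Cxcr2 reached 11.1 against at most 1.22 in the others. The part of droplets with cells of both kinds was not tested.

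Cxcl2, the ligand also known as MIP-2, was the most abundant of the 7 transcripts and was highest in neutrophil-like cells among the classes of both libraries. Neutrophil-like cells had 54511 CPM in MGJ (54365 to 54658), and 10884 in MGJ2 (10796 to 10972). Monocyte-like cells came next in both, with 23567 in MGJ and 5988 in MGJ2, and macrophage-like cells of MGJ had 10368. Neutrophil-lineage-like cells had 9.15 times the Cxcl2 level of the remaining cells in MGJ (9.12 to 9.19) and 2.79 times in MGJ2 (2.77 to 2.82). Without the 4 clusters that had no own leading marker the second ratio was 19.7, since these hold most monocyte-like cells, and with cells weighted equally it was 4.96. Naming cells one by one from their marker scores lowered the first ratio to 5.25 and brought the second below 2. Counted per cell, the order of the first 2 classes turned: monocyte-like cells had a mean of 156 Cxcl2 UMIs in MGJ and 52.8 in MGJ2, and neutrophil-like cells 116 and 29.5, at a median depth of 6378.5 and 9064 against 1841 and 2348.5 UMIs per cell. Of the Cxcl2 UMIs of MGJ, 50.5% were in neutrophil-like and 20.2% in monocyte-like cells, and in MGJ2 37.5% and 56.1%.

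Nearly every neutrophil-like cell carried Cxcl2: 97.6% of cells thinned to 1000 UMIs had a UMI in MGJ and 90.9% in MGJ2. The background was high in MGJ, where 27.6% of thinned T cell-like cells had a Cxcl2 UMI and the T cell- and NK cell-like classes stood at 1719 and 463 CPM. In MGJ2 these classes had 103 and 63.0, with a UMI in 6.3% of thinned T cell-like cells. Basophil or mast cell-like cells of MGJ2 had 1189 (1116 to 1265), above the myeloid progenitor-like cells at 392. Fibroblast-like cells of MGJ had 5850, which did not differ beyond counting error from the 82 B cell-like cells (ratio 1.01, 0.96 to 1.07).

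Cxcl3, whose product also binds CXCR2, followed Cxcl2 but was highest in monocyte-like cells. These had 5292 CPM in MGJ (5245 to 5340) and 1273 in MGJ2 (1255 to 1291). The main monocyte-like cluster of MGJ had a marker score of 2.45 for monocytes and 1.90 for macrophages, so its name is not clear-cut. Neutrophil-like cells had 3530 (3492 to 3567) and 210 (198 to 222), and macrophage-like cells of MGJ 1218. Monocyte-like cells held 40.6% of the Cxcl3 UMIs of MGJ and 87.1% of those of MGJ2. The neutrophil lineage was 3.69 times above all other cells in MGJ (3.64 to 3.74), while in MGJ2 it was at 0.262 of their level (0.247 to 0.278). Leaving out the clusters with no own leading marker turned the MGJ2 ratio to 2.23 and moved the MGJ ratio to 7.99, since these clusters hold most monocyte-like cells. T cell- and NK cell-like cells had 345 and 24.1 in MGJ and 66.9 and 7.96 in MGJ2.

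Within the monocyte-like cells of MGJ, a sub-cluster of 380 cells led by Pf4, Arg1 and Saa3 had the highest Cxcl3, 9760 (9650 to 9872), with Cxcl2 at 32483 and Cxcl1 at 4989. The largest sub-cluster, 852 cells, had 3423, 20627 and 1449 for the same genes, and its leading genes included Col3a1 and Col2a1, which are stromal. A further 85 cells, led by the macrophage marker C1qa, had 446, 5948 and 1057. In MGJ2 the sub-clusters separated Cxcl2 from Cxcl3. A sub-cluster of 148 cells led by Fabp4, Cd300e, Ear2, Spn and Ace, genes known from patrolling monocytes, had Cxcl2 at 6068 (5891 to 6248), close to the 6467 of the largest sub-cluster, led by Cd177 and Lpar6. Its Cxcl3 was 52.9 (37.6 to 72.4) against 1560 (1535 to 1586), and its Cxcl1 25.8 against 312. Cells led by Fosb and Egr1 had Cxcl2 at 5263 and Cxcl3 at 190, so all 4 monocyte-like sub-clusters of MGJ2 lay between 4975 and 6467 in Cxcl2 while Cxcl3 spread from 52.9 to 1560.

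**Figure D2:**
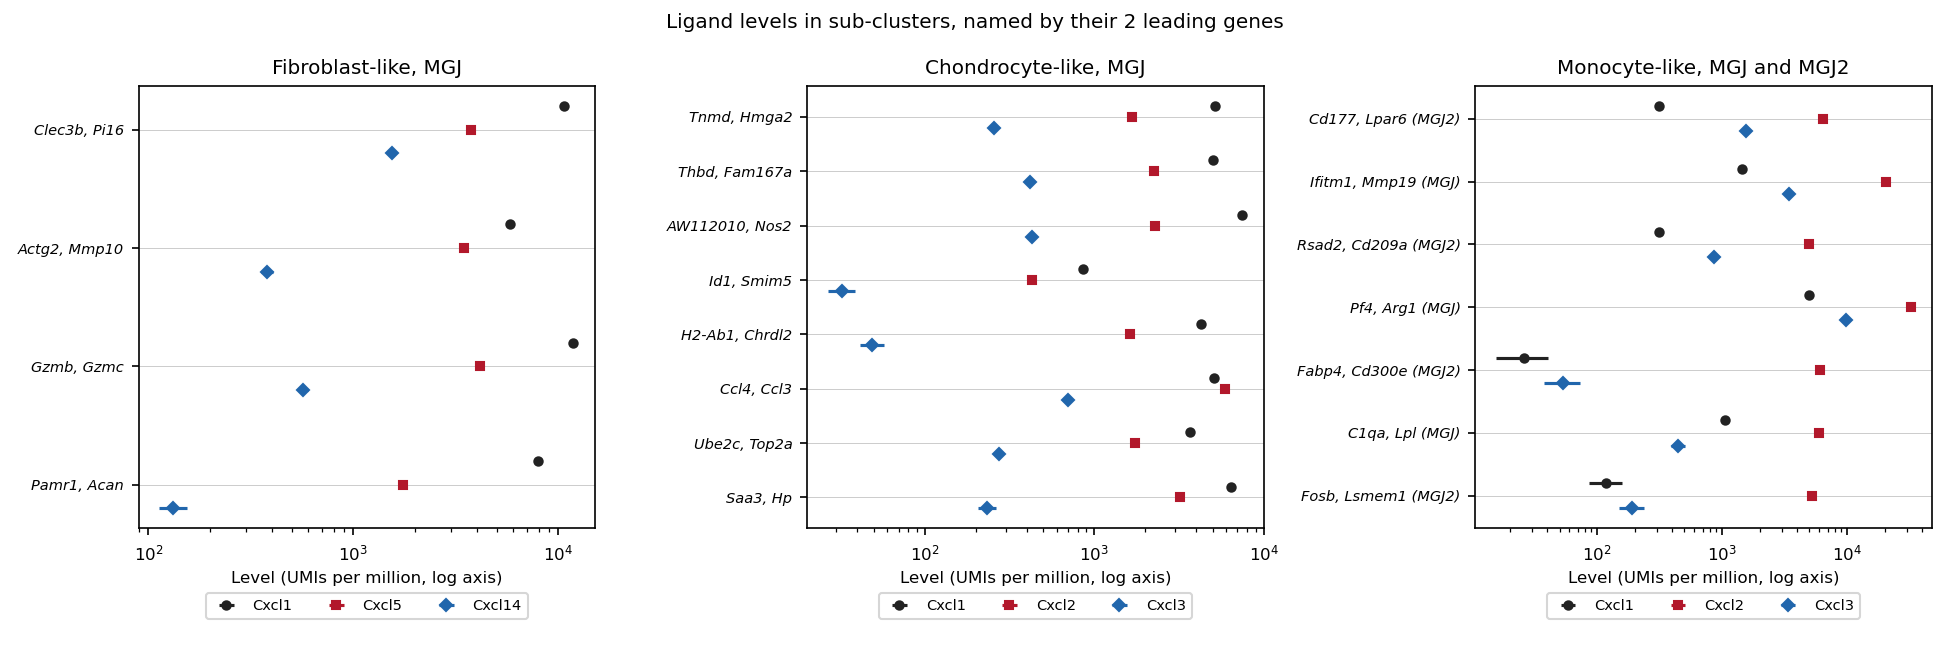
Levels (x axis, CPM, log scale, with 95% Poisson intervals) of Cxcl1, Cxcl5 and Cxcl14 in sub-clusters of fibroblast-like cells, and of Cxcl1, Cxcl2 and Cxcl3 in those of chondrocyte-like and monocyte-like cells (y axis, each named by its 2 leading genes). Cxcl14 ranged from 132 to 1550 over the fibroblast-like sub-clusters, and Cxcl3 fell to 52.9 in the Fabp4-led monocyte-like cells of MGJ2 while Cxcl2 stayed at 6068.

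Cxcl5, the ligand known as LIX in the mouse, was a fibroblast transcript in MGJ and all but missing in MGJ2. Fibroblast-like cells of MGJ had 3371 CPM (3334 to 3408) and held 75.4% of its UMIs. Mural cell-like cells had 810 (760 to 863), tendon cell-like cells 298, chondrocyte-like cells 101 and endothelial cell-like cells 96.7, the last 2 not separated by counting error (ratio 1.04, 0.91 to 1.20). All other classes were at 38.2 or below, lymphocyte-like and neutrophil-like cells at 9.32 to 21.7. The gene was also uneven over cells, since 1% of the library's cells held 55.7% of its UMIs and 85.4% of those cells were fibroblast-like. Mesenchymal-like cells had 27.2 times the level of the neutrophil lineage (23.9 to 31.0). In MGJ2 Cxcl5 had 7 UMIs in all, 5 of them in 1664 monocyte-like cells and 0 in 1994 neutrophil-like cells, where the exact interval reaches 0.683. The tendon cell-like cluster scored nearly as high for fibroblasts, but MGJ2 had no class named fibroblast-like. Its few cells of the other classes with Cxcl5 in MGJ had 4.57 (0.554 to 16.5) in 44 tendon cell-like cells and 0 UMIs in 40 chondrocyte-like, 50 endothelial cell-like and 116 hypertrophic chondrocyte-like cells, where the exact intervals reach 3.53, 8.52 and 1.04.

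Across the 4 fibroblast-like sub-clusters Cxcl5 ranged from 1751 (1680 to 1825), in 75 cells led by Pamr1 and Acan, to 4146 (4057 to 4236), in 114 cells led by Gzmb, Gzmc and Ereg. The Clec3b- and Pi16-led cells, genes known from adventitial fibroblasts, had 3736, and the Actg2- and Acta2-led contractile cells 3461. Cxcl1 ranged from 5807 in the contractile cells to 11812 in the Gzmb-led cells. Both ligands were therefore high in each fibroblast-like sub-cluster.

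Cxcr2, the receptor gene of the 4 ligands above, was highest in the neutrophil lineage of both libraries. Neutrophil-like cells had 149 CPM in MGJ (141 to 157) and 655 in MGJ2 (634 to 677), and immature neutrophil-like cells 53.8 (45.8 to 62.7) and 106 (97.4 to 116). Together the lineage had 64.8 times the Cxcr2 level of the remaining cells in MGJ (56.3 to 74.9) and 54.2 times in MGJ2 (48.5 to 60.7). Clustering MGJ alone lowered its ratio to 11.97, and in MGJ2 the ratio was 29.96 with likely doublets kept and 14.2 with cells named one by one from their marker scores. Outside the lineage, basophil or mast cell-like cells of MGJ2 had 71.6 (54.6 to 92.1), on 60 UMIs in 106 cells, and 11.4% of them had a Cxcr2 UMI after thinning, against 0.1% of T cell-like cells. Myeloid progenitor-like cells had 10.6 and 19.9. Monocyte-, macrophage- and fibroblast-like cells of MGJ had 2.65, 2.20 and 1.99, and T cell-like cells had 0 UMIs in 218 cells, where the exact interval reaches 4.66.

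Cxcr2 was sparse even in neutrophil-like cells: 18.1% had a UMI in MGJ and 56.4% in MGJ2, and after thinning to 1000 UMIs 10.2% and 37.2%. Csf3r, the G-CSF receptor, another neutrophil receptor gene, had 249 CPM in MGJ and 644 in MGJ2 in the same class. The 2 receptor genes thus had levels of the same order within each library.

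Over the clusters named neutrophil-like, the immature ones aside, receptor and ligand levels ran largely in opposite order. Neither gene was used to make the clusters. In MGJ the cluster led by Retnlg and Mmp8, the neutrophil collagenase gene, had the highest Cxcr2, 365 (334 to 398), and the lowest Cxcl2, 6898 (6760 to 7038). Ngp, a marker of the immature class, stood there at 13284 CPM in MGJ and 11327 in MGJ2. The other neutrophil-like clusters had at most 166 and 151, and the immature ones at least 47184 and 49104. The Retnlg-led cluster scored 5.01 for neutrophils and 3.84 for immature neutrophils. It was thus less mature than the others by this marker, and the part of maturity in the order was not tested. The cluster led by Cstdc4 and Stfa2l1 had 209 (194 to 224) and 38576, and the 92 cells led by Acod1 and Il1r2 had 189 (130 to 265) and 35927, so this pair broke the order in Cxcl2 but was not separated in Cxcr2. The interferon-response cluster led by Rsad2 and Ifit1 had 86.2 (67.5 to 109) and 64328, and the cluster led by Ccl3, Ccl4, Tnf and Il1a, all inflammatory mediators, had 23.7 (19.0 to 29.2) and 86220. Between the last and the Retnlg-led cluster Cxcl2 differed 12.5-fold (12.2 to 12.8) and Cxcr2 by a ratio of 0.0649 (0.0512 to 0.0815). Cxcl3 and Cxcl1 were also higher in the Ccl3-led cluster, by 8.87 and 6.74 times.

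MGJ2 held 3 of these clusters with at least 50 cells. The Retnlg-led cluster again had the highest Cxcr2, 941 (898 to 986), and the lowest Cxcl2, 3289 (3207 to 3372). The cluster led by Acod1, Il1r2 and Csf3r had 498 and 15055, which is 0.529 of the receptor level (0.494 to 0.566) and 4.58 times the ligand level (4.46 to 4.70). The Cstdc4-led cluster (61 cells) had 598 and 14504. The immature clusters had the lowest Cxcl2 and less Cxcr2 than the Retnlg-led one. In MGJ the Ltf- and Ngp-led cells had 68.4 for Cxcr2 and 2353 for Cxcl2 and the Camp- and Chil3-led cells 38.8 and 1330, and in MGJ2 165 and 241, and 50.1 and 127. From the Ltf-led to the Retnlg-led cluster Cxcr2 was 5.34 times higher in MGJ and 5.69 times in MGJ2. The Retnlg-led cells had a median depth of 3761 UMIs in MGJ and 4424 in MGJ2. The other neutrophil-like clusters had 1512.5 to 1908 and 2092 to 2206. The Retnlg-led cells thus also stood apart in depth, and the part of depth in their values was not tested. In falling order of Cxcr2, from 209 to 23.7, the other 4 neutrophil-like clusters of MGJ had median depths of 1799.5, 1512.5, 1908 and 1772.

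**Figure D3:**
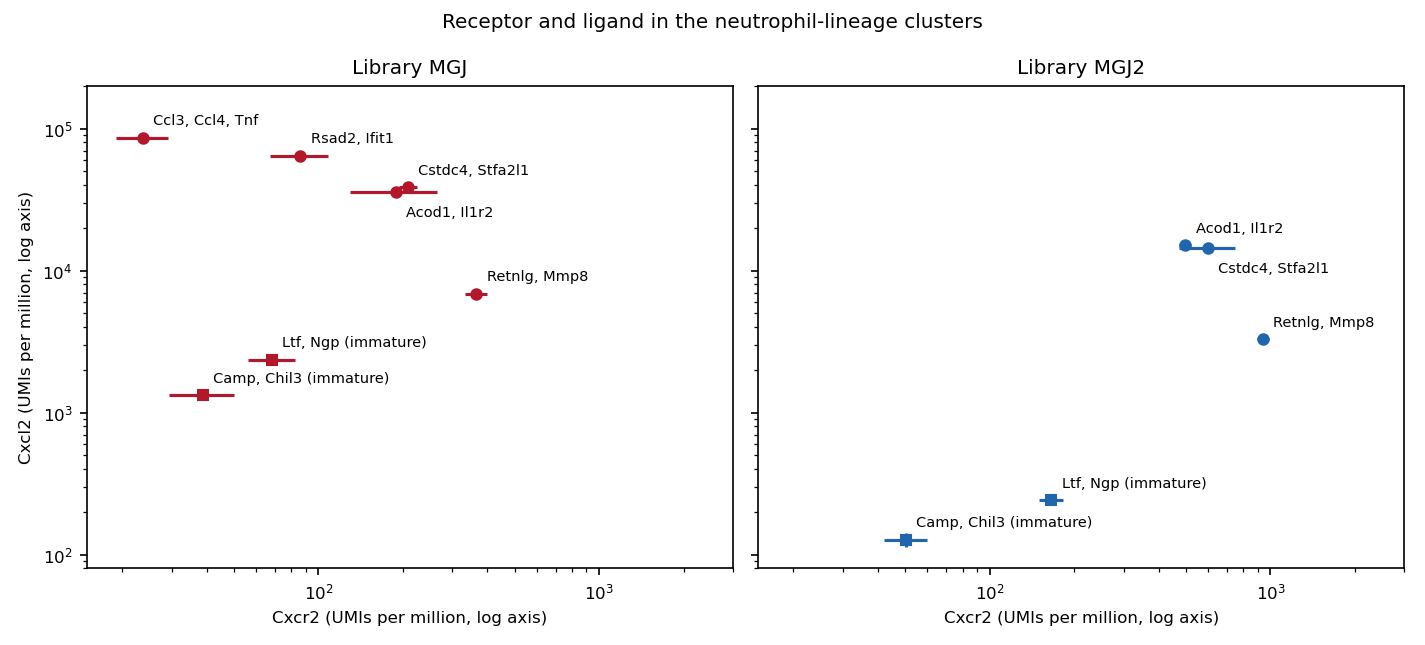
Cxcl2 (y axis) against Cxcr2 (x axis), both in CPM on log scales with 95% Poisson intervals, in the neutrophil-lineage clusters of at least 50 cells, named by leading genes, with circles for neutrophil-like and squares for immature clusters. In MGJ the neutrophil-like clusters ran from 365 Cxcr2 and 6898 Cxcl2 (Retnlg-led) to 23.7 and 86220 (Ccl3-led), and the immature clusters had the lowest Cxcl2, 2353 and 1330.

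Single cells with both transcripts were found, and the high Cxcl2 background of MGJ given above bears on the MGJ shares. Of neutrophil-lineage-like cells thinned to 1000 UMIs, 9.06% had both Cxcr2 and Cxcl2 in MGJ, 83.2% had Cxcl2 alone and 0.797% Cxcr2 alone. In MGJ2 these shares were 26.8%, 49.2% and 5.97%. In the Retnlg-led cluster of MGJ2 Cxcl2 was found in 70.0% (63.9 to 75.6%) of cells with and 67.9% of cells without a Cxcr2 UMI, and in that of MGJ in 79.8% (70.2 to 87.4%) and 77.0%. In the Acod1-led cluster of MGJ2 the shares were 95.7% (93.4 to 97.4%) and 97.0%. Within these clusters the intervals overlapped, and in the last one nearly every cell had Cxcl2, which leaves little room for a difference. Over the whole lineage of MGJ2 the shares were 81.7% (78.9 to 84.4%) of cells with and 73.1% (70.9 to 75.3%) of cells without a Cxcr2 UMI, and in MGJ 91.9% and 92.3%.

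Cxcl14, a CXC ligand outside the CXCR2 group, was a mesenchymal transcript in both libraries. Fibroblast-like cells of MGJ had 758 CPM (740 to 776) and 75.8% of the UMIs, followed by hypertrophic chondrocyte-like cells at 50.5 (47.8 to 53.3), tendon cell-like cells at 22.05 and chondrocyte-like cells at 14.4. Within the fibroblast-like cells the Clec3b- and Pi16-led sub-cluster had 1550 (1497 to 1605), against 567 in the Gzmb-led, 380 in the contractile and 132 (113 to 153) in the Pamr1-led cells. Cxcl14 thus spread more widely over these sub-clusters than Cxcl1 or Cxcl5. In MGJ2, among classes of at least 50 cells, hypertrophic chondrocyte-like cells led with 30.5 (25.0 to 36.8), on 108 UMIs, and 11.2% of the 116 cells had a UMI. The 44 tendon cell-like cells, too few to be ranked, had 105 (77.0 to 140) on 46 UMIs, and 1 cell of MGJ2 held 27 Cxcl14 UMIs by itself. The mesenchymal-like level was 28.1 times that of all other cells in MGJ (24.1 to 33.0) and 68.4 times in MGJ2 (44.0 to 111). The first ratio was 7.90 with cells named one by one from their marker scores, and the second was 20.5 at a finer clustering and 213 with cells weighted equally. By contrast, neutrophil-like cells had 2.55 in MGJ and 0 UMIs in MGJ2.

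Cxcl16, which CXCR6-bearing lymphocytes recognise, was a gene of mononuclear phagocytes in both libraries. Dendritic cell-like cells had the highest level, 900 in MGJ (827 to 978) and 1093 in MGJ2 (1058 to 1128). Macrophage-like cells of MGJ had 539 and monocyte-like cells 397 and 723. The 4 mononuclear-phagocyte-like classes together, osteoclast-like cells included, had 13.2 times the level of all others in MGJ (12.7 to 13.7) and 37.4 times in MGJ2 (34.7 to 40.4). Clustering MGJ alone moved the first ratio to 5.52, and keeping likely doublets moved the second to 19.0. Osteoclast-like cells were the lowest of the 4 classes, at 118 and 82.1. Fibroblast-like cells of MGJ had 148 (141 to 156), and neutrophil-like cells 24.1 and 26.1. In the Fabp4-led monocyte-like cells of MGJ2 Cxcl16 was 191 and in the Fosb-led cells 115 (83.2 to 154), against 694 in the Cd177-led cells. The monocyte-like cells led by Rsad2, Cd209a and H2-Aa had 992, and Cd209a and H2-Aa are on the marker list of dendritic cells.

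**Figure D4:**
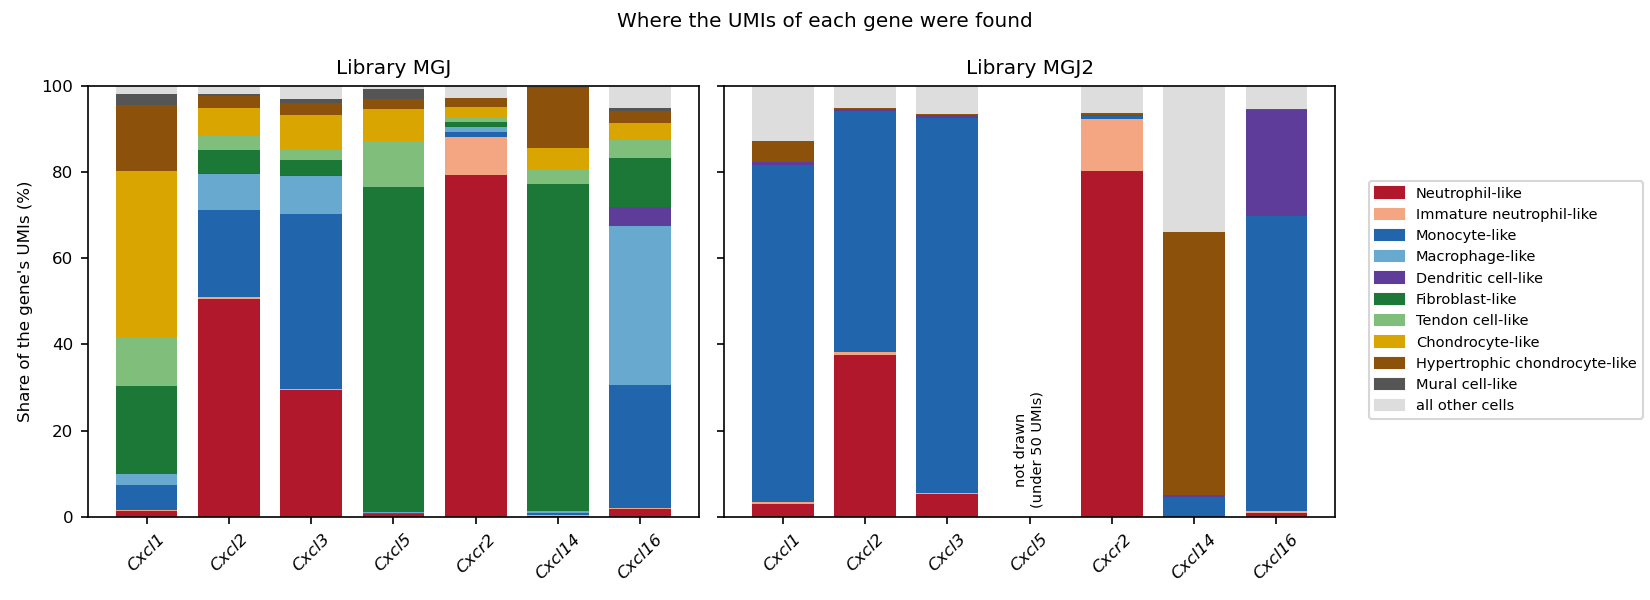
Share of each gene's UMIs (y axis, percent) found in each class, as stacked bars for the 7 genes (x axis) in MGJ and MGJ2, with all cells of other classes in light grey. Neutrophil-like cells held 79.2% of the Cxcr2 UMIs in MGJ and 80.2% in MGJ2, fibroblast-like cells held 75.4% of Cxcl5 and 75.8% of Cxcl14 in MGJ, and Cxcl5 in MGJ2 (7 UMIs) was not drawn.

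Many cells carried more than 1 of the 4 CXCR2 ligand transcripts. After thinning to 1000 UMIs, 80.8% of fibroblast-like cells of MGJ had at least 2 of them and 51.2% at least 3. In monocyte-like cells these shares were 73.4% and 28.8%, in neutrophil-like cells 63.7% and 14.5%, and in T cell-like cells of the same library 11.2% and 0.935%. In MGJ2, 31.8% of monocyte-like and 11.5% of neutrophil-like cells had at least 2, against 0.745% of T cell-like cells. The share with at least 2 ligands was highest in fibroblast-like cells in MGJ and in monocyte-like cells in MGJ2, among classes with at least 50 such cells.

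The named classes (18 in MGJ, 14 in MGJ2) differ in depth, and all classes of a library share its free RNA. Over these classes Cxcl2 and Cxcl3 followed each other with a Pearson r of 0.94 in MGJ and 0.69 in MGJ2. Cxcl1 and Cxcl2 had 0.32 and 0.48. By the highest mean r of the 2 libraries, Cxcl1 was most like Jag1 (0.90), a Notch ligand gene, Ccl2 (0.88), the monocyte chemokine gene, and Lima1 (0.87). Genes like Cxcl2 included Nlrp3 (0.90), the inflammasome sensor gene, and Il1a (0.88), and Cxcl3 was most like Gpr35, Il1a and Cxcl2 (0.81 to 0.82). Cxcr2 was most like Mirt2 (0.95), Hdc (0.93), which encodes the histamine-forming enzyme, and Hcar2 (0.92). Cxcl14 was most like Cemip (0.92), Osr2 (0.90) and Ltbp2 (0.90), and Cxcl16 most like Tbc1d9 (0.93), Flrt3 (0.91) and Dapk1 (0.89). For Cxcl5, with 7 UMIs in MGJ2, no like gene is named. These r values describe the classes of 2 libraries.

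Among 39 further genes of the pathway 38 were in the matrices, and 36 of these had at least 50 UMIs in MGJ and 32 in MGJ2. Of them 13 in MGJ and 12 in MGJ2 were highest in neutrophil-like cells, as were Cxcl2 and Cxcr2, where 4.15% and 6.29% of all genes were. They comprised the inducing cytokine genes Tnf (1790 CPM in MGJ, 447 in MGJ2) and Il1a (1010 and 123), the antagonist gene Il1rn (5025 and 4223), and Il17ra (107 and 454). The NF-kB feedback genes Nfkbia (2927 and 2465), Nfkbiz (760 and 1103) and Zc3h12a (306 and 534) were also among them, as were the chemoattractant receptor genes Ccr1, Fpr1, Fpr2 and C5ar1 and the G-CSF receptor gene. Cxcr1, the sister receptor of Cxcr2, was highest there too but low, at 11.3 and 5.18. The list includes receptor genes taken for their role in neutrophils, and Csf3r is also a marker used to name the neutrophil-like class. The counts above were therefore partly set by the choice of the list.

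Other genes of the list were highest in other classes, some with high levels in neutrophil-like cells too. Il1b was highest in monocyte-like cells of MGJ (6081) and dendritic cell-like cells of MGJ2 (4007), and neutrophil-like cells had 4094 and 3588. Il1r1, the interleukin-1 receptor gene, was highest in mural cell-like cells of MGJ (229), the class that also led in Cxcl1 and in Il6 (1656). Il17a was found in T cell-like cells of MGJ at 631 (577 to 689), on 500 UMIs in 218 cells, and with 1 UMI in the 811 T cell-like cells of MGJ2. Csf3, the gene for G-CSF, stood at 688 in endothelial cell-like and 687 in neutrophil-like cells of MGJ and at 111 and 103 in MGJ2, so the 2 classes were not separated. Ackr1, a decoy receptor gene of venules, was highest in endothelial cell-like cells, at 237 and 32.3. Cxcr6, the receptor gene for CXCL16, was highest in T cell-like cells, at 919 in MGJ and 253 in MGJ2. Cxcl12, the ligand gene of CXCR4, was highest in fibroblast-like cells of MGJ (864), the class that led in Cxcl5 and Cxcl14. In MGJ2, among classes of at least 50 cells, endothelial cell-like cells led in Cxcl12 with 803 (721 to 892). They held only 11.9% of its 2914 UMIs, and the next class stood at 2.54 on 9 UMIs. Most Cxcl12 UMIs of MGJ2 therefore lay in classes of under 50 cells, which were not ranked.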

How the data were processed

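Calluses were dissociated by enzyme digestion and single-cell 3′ libraries were made on the 10x Chromium platform (version 3 chemistry). The deposited values are raw UMI counts per gene and barcode, made by the authors on GRCm38 (per the labels) with Cell Ranger, whose version stands in the matrix header as 4.0.0. The labels also name Seurat. Cell Ranger counts only reads that fit 1 gene, so reads from stretches shared by 2 genes are lost. The 7 genes, the marker lists and the pathway list were chosen with earlier results of these data known.

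Barcodes with under 200 genes or over 20% mitochondrial UMIs were left out (371 and 464 in MGJ, 70 and 133 in MGJ2). Scrublet, as run in scanpy 1.11.5, set a threshold that called 0 barcodes in MGJ, so a score above 0.25 was used in both, which removed 513 (3.81%) and 238 (3.05%) barcodes where 10.8% and 6.24% were foreseen. This score, the rule for ties between marker lists, the sub-clusters and the promoter motifs were chosen after the data had been seen. Counts were scaled to 10000 per cell, and 2000 variable genes without the 7 genes and the pathway list, 30 components, 15 neighbours and Leiden clustering (leidenalg 0.10.2, resolution 1) gave joint clusters. Clusters were named from 26 marker lists by their mean score, with at least 3 detected markers. Among lists within 1 of the highest score, the one with most markers among the 10 leading genes was taken. The hypertrophic chondrocyte-like name was so chosen at 5.31, where another list scored 5.95, and 1 pre-B cell-like cluster at 3.61 against 3.69. UMIs were summed by class and library. Levels carry exact Poisson, shares Clopper-Pearson and ratios exact conditional binomial 95% intervals (scipy 1.17.1). The ratio and its interval were tested on simulated data. PCR duplicates are removed by UMIs, and intervals and floors cover counting error only. Shares of cells were taken after thinning each cell to 1000 UMIs, which leaves out shallower cells. Levels across genes are in UMIs, since 3′ tags do not scale with length. Named genes were the 7 genes, the 3 genes most like each (Pearson r of log2 of CPM plus 10 over classes, at least 100 UMIs in each library) and the pathway list, and a gene that this rule names is not reported here. Genes with at least 50 UMIs counted as tested for the 2-fold backgrounds.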

Additional observations from a re-analysis of the deposited data

Results flagged for a closer look

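The barcodes that were left out of the cell classes also carried these transcripts, above the level that 3 counts over all of their UMIs would give (0.308 CPM, UMIs per 1000000 UMIs, in MGJ, 0.901 in MGJ2). In the 1348 barcodes left out of MGJ, Cxcl1 stood at 2920 CPM, Cxcl2 at 7603, Cxcl3 at 786, Cxcl5 at 352, Cxcr2 at 14.5, Cxcl14 at 61.8 and Cxcl16 at 93.3. In the 441 barcodes left out of MGJ2, Cxcl1 stood at 88.9, Cxcl2 at 3363, Cxcl3 at 402, Cxcr2 at 95.5 and Cxcl16 at 305. The kept cells of MGJ had 3218, 8434, 942, 340, 14.7, 76.1 and 100.1 for the 7 genes in the order above. Why these barcodes carried the transcripts was not tested.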

How the results depend on the processing

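No paired analysis was possible because each library is alone and the labels give no replicate numbers. Of 147 alternative values of the ratios and shares, 64 moved by less than counting error, 82 moved further without turning direction and 1 reversed. Counting intervals are narrow, so small moves pass them too, but several ratios moved by a large factor, as the values below show. Leaving out the clusters with no own leading marker (chosen after seeing the data) reversed the Cxcl3 ratio of MGJ2 to 2.23, by dropping most monocyte-like cells. It also gave Cxcl2 13.6, Cxcl3 7.99, Cxcl1 9.73 and Cxcl16 14.0 in MGJ, and Cxcr2 41.5 and Cxcl2 19.7 in MGJ2. For the other settings the cause was not tested.

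With cells weighted equally, MGJ had Cxcr2 54.1, Cxcl2 7.96, Cxcl3 3.04, Cxcl1 7.07, Cxcl5 20.5 and Cxcl16 15.5, and MGJ2 had Cxcr2 79.0, Cxcl2 4.96, Cxcl3 0.497, Cxcl1 3.27 and Cxcl14 213. With doublet calls kept, MGJ had Cxcr2 46.8, Cxcl2 8.77, Cxcl3 3.61, Cxcl1 8.55 and Cxcl16 11.3, and MGJ2 had Cxcr2 29.96, Cxcl2 2.63, Cxcl1 3.74 and Cxcl16 19.0. With each library clustered alone, MGJ had Cxcr2 11.97, Cxcl2 6.17, Cxcl3 3.10, Cxcl1 11.8 and Cxcl16 5.52, and MGJ2 had Cxcl2 3.91, Cxcl3 0.359 and Cxcl1 4.10. With the 7 genes and the pathway list used for clustering, MGJ had Cxcr2 54.6, Cxcl2 6.96, Cxcl3 4.15, Cxcl1 13.4 and Cxcl5 31.6, and MGJ2 had Cxcl2 3.85 and Cxcl3 0.356. With each cell named by its highest marker score, MGJ had Cxcr2 38.8, Cxcl2 5.25, Cxcl3 3.11, Cxcl1 12.5, Cxcl14 7.90 and Cxcl16 9.99, and MGJ2 had Cxcr2 14.2, Cxcl2 1.88, Cxcl3 0.180, Cxcl1 9.91 and Cxcl16 18.3. With at most 10% mitochondrial UMIs, MGJ had Cxcl2 10.3, Cxcl3 4.18 and Cxcl1 8.59, and MGJ2 had Cxcl2 3.89, Cxcl3 0.359 and Cxcl1 4.10. With at least 500 genes, MGJ had Cxcl2 7.65, Cxcl3 3.29 and Cxcl1 10.4, and MGJ2 had Cxcl2 2.48, Cxcl3 0.236 and Cxcl16 32.7. At clustering resolution 0.5, MGJ had Cxcl2 10.4, Cxcl3 4.21 and Cxcl1 8.55, and MGJ2 had Cxcl2 3.88, Cxcl3 0.358 and Cxcl1 4.05. At resolution 2, MGJ had Cxcl2 6.48, Cxcl3 3.47, Cxcl1 13.8, Cxcl5 33.9 and Cxcl16 12.6, and MGJ2 had Cxcl2 2.60, Cxcl3 0.242, Cxcl14 20.5 and Cxcl16 40.5. Thinned to 2000 UMIs, 20.8% of neutrophil-like cells of MGJ and 57.4% of those of MGJ2 had a Cxcr2 UMI, and 92.6% of those of MGJ2 a Cxcl2 UMI. The Cxcl5 ratio of MGJ2 had no value, with 2 UMIs against 0, and no cluster was left unnamed, so no alternative could change either. Leaving out a replicate was not possible with 1 library.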
